A study of Arabidopsis thaliana with 6 samples.

Results

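The genes examined were chosen as genes of early anther development and of meiosis, and number 9: *SPL*, *ROXY2*, *ATSPO11-1*, *SPO11-2*, *ATMND1*, *ZYP1b*, *SDS*, *RCK* and AT1G12790. They were taken by symbol or locus from the platform's probe table, which gave each of the 9 genes 1 probe set, out of 13513 probe sets with a single named gene, for 13356 genes in all, and 22746 probe sets that are not controls. Transcript levels came from Affymetrix ATH1 arrays of Arabidopsis thaliana inflorescences, hybridised with RNA from floral buds of mixed age, none older than stage 13, cut from primary inflorescences of Col-0 plants that were 42 days old and grew under equal light and dark periods. The groups were the mutant atyak1-1, the mutant atyak1-2 and the wild type (WT), each with 2 biological replicates on 1 array each, so 4 mutant arrays stood against 2 wild-type arrays. Both mutants carry lesions in AtYAK1, which encodes a DYRK-type protein kinase studied here for the development of the male gametophyte; the sources used here do not give the kind of lesion in either allele.

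In a young anther, archesporial cells divide to give an outer wall, whose inner layer is the tapetum, and inner sporogenous cells that become meiocytes. In the meiocytes programmed double-strand breaks are made in the DNA, the broken ends invade the homologous chromosome, the homologues are zipped together by the synaptonemal complex, and some of the joints are resolved as crossovers. These steps come before the microspores and the pollen are formed, and meiocytes are a small share of the cells of a bud. In bulk buds, fewer cells of a type and less RNA per cell cannot be told apart.

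The values are MAS5 signals, a linear intensity scaled to a like trimmed mean on every array, and the number of arrays limits their precision. The array medians lay between 213 and 223 on the mutant arrays and at 222 and 216 on the wild-type arrays. The ratio of 3′ to 5′ signal of an actin control was between 1.43 and 1.68 on the mutant arrays, against 1.91 and 1.58 for the wild type. For another actin control it was between 10.7 and 13.4 on the mutant arrays, against 14.4 and 7.86 for the wild type. The first principal component of all probe sets, with 37.8% of the variance, set the mutants, from -75.8 to -18.2, apart from the wild type, at 85.3 and 78.1. On the second component, with 19.8% of the variance, replicate 1 of atyak1-1 and of atyak1-2, at 61.4 and 57.8, stood apart from the other mutant arrays, at -57.5 and -21.7, and from the wild type, at -16.2 and -23.9. AtYAK1 had 0 probe sets in the probe table, so its transcript could not serve as a check of the genotype labels. Of the 9 genes 6 were dim, with a geometric mean signal over the 6 arrays below 73.6, a level that 33.3% of all probe sets did not reach. Those were *ROXY2*, *ATSPO11-1*, *SPO11-2*, *ZYP1b*, *SDS* and *RCK*, and the other 3 were *SPL*, *ATMND1* and AT1G12790. No detection calls were used here, so whether a dim signal is above background was not tested, and log2 fold changes are given both on log2 signal and on log2(signal + 32), which damps changes between dim values.

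**Figure D1:**
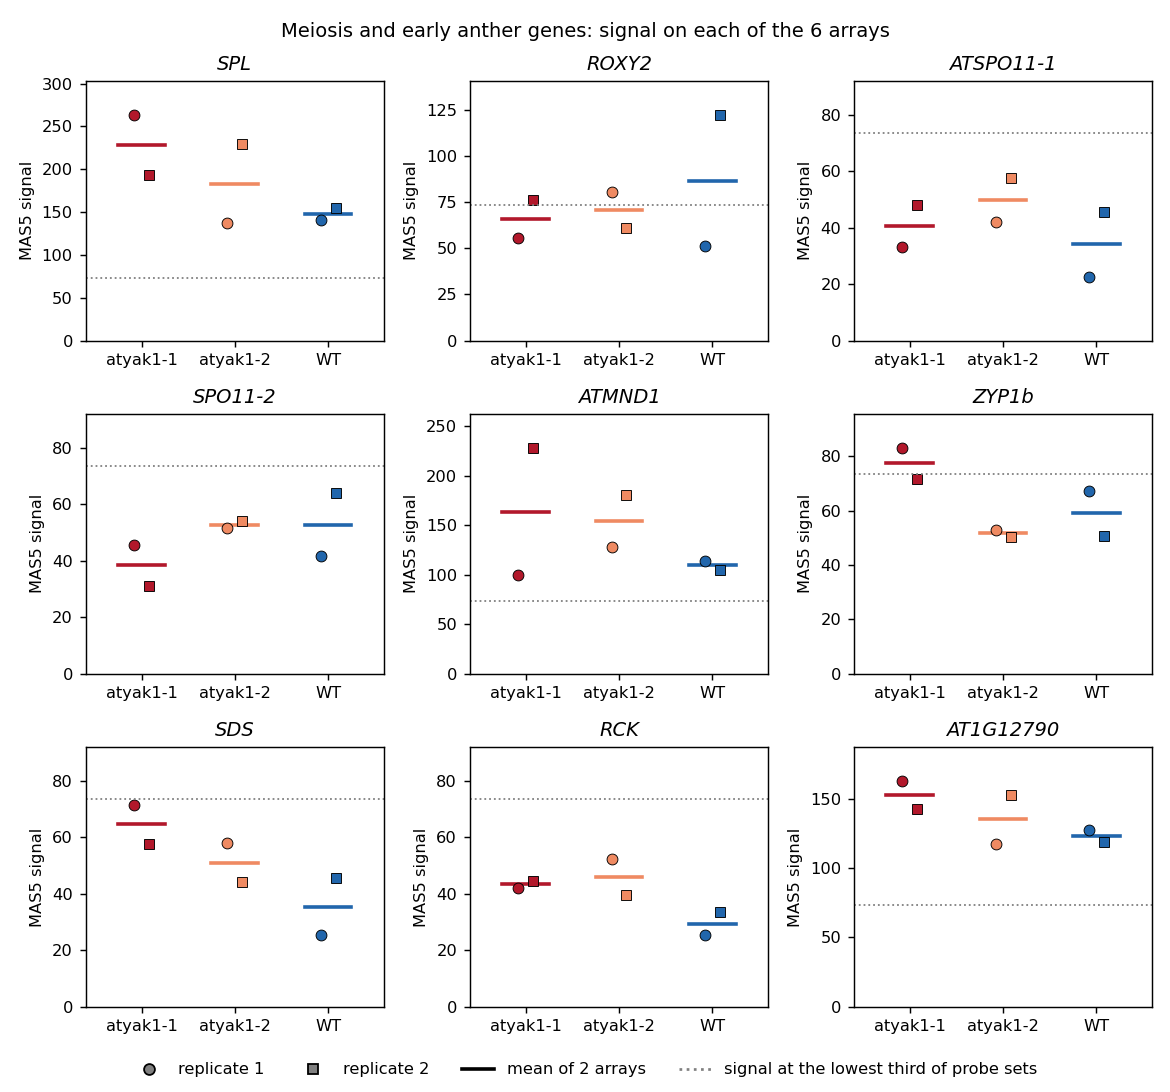
MAS5 signal (y axis, linear, from 0) of each gene on the 2 arrays of atyak1-1, atyak1-2 and the wild type (x axis); circles are replicate 1, squares replicate 2, and bars the mean of 2 arrays. The dotted line marks a signal of 73.6; all 6 points of *ATSPO11-1*, *SPO11-2*, *SDS* and *RCK* lie below it, and only for *RCK* do the 4 mutant points all lie above both wild-type points.

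The main comparison asked whether the mean of the alleles differed from the wild type in these transcripts. Of the 9 genes 7 had a higher mean log2 signal in the mutants and 2, *ROXY2* and *SPO11-2*, had a lower one, with log2 fold changes between -0.23 and 0.75. None of the 9 had an adjusted p under 0.05 in limma, where 1.96% of all probe sets passed (445 of 22746, of which 62 were higher and 383 lower), and none had an unadjusted p under 0.05, against 14.8% of all probe sets. With 9 genes, 0 called is near that background. The smallest adjusted p of the 9 was 0.45 in limma, on log2 signal, and 0.39 on log2(signal + 32). The median log2 fold change of the 9 was 0.44, against 0.09 for all probe sets, of which 60.5% were higher in the mutants; on log2(signal + 32) these medians were 0.23 and 0.06. The 95% intervals of all 9 log2 fold changes included 0, and none of them reached below -1.23 or above 1.69. The count of 445 was 757, 179 and 132 without atyak1-1 replicate 1, atyak1-2 replicate 1 and atyak1-2 replicate 2, and 8 and 2 without wild-type replicates 1 and 2.

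The early anther genes come first in development. *SPL* (SPOROCYTELESS, also called NOZZLE, AT4G27330) encodes a transcriptional regulator that is needed to form sporogenous cells in anthers and ovules. Its signal was 263 and 193 in atyak1-1 and 137 and 229.6 in atyak1-2, against 140.4 and 154 in the wild type. Both atyak1-1 arrays lay above both wild-type arrays, while 1 atyak1-2 array lay below them, so the mutant and wild-type ranges overlapped. The log2 fold change of the mean of the alleles was 0.44 ± 0.27 (SE; 4 mutant arrays against 2 wild-type arrays; adjusted p = 0.50 in limma), with a 95% interval from -0.19 to 1.07, and 0.38 ± 0.23 on log2(signal + 32). The wild-type pair differed by only 0.14 on the log2 scale, while the atyak1-2 pair differed by 0.74. *SPL* was thus the steadiest of the early anther pair in the wild type and varied more within atyak1-2 than between the group means.

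*ROXY2* (AT5G14070) encodes a glutaredoxin of the CC type that acts redundantly with its relative *ROXY1* in the formation of anther lobes. Its signal was 55.4 and 76.1 in atyak1-1 and 80.4 and 60.9 in atyak1-2, against 51.0 and 122.3 in the wild type. All 4 mutant arrays lay between the 2 wild-type arrays. It had a log2 fold change of -0.23 ± 0.43 (SE; adjusted p = 0.85 in limma; 95% interval -1.23 to 0.77), and -0.18 ± 0.28 on log2(signal + 32). The sign of this difference followed 1 array: without wild-type replicate 2 it was 0.40, and without wild-type replicate 1 it was -0.86.

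The double-strand breaks that start meiotic recombination are made in Arabidopsis by SPO11-1 and SPO11-2, relatives of the A subunit of archaeal topoisomerase VI that are both required. *ATSPO11-1* (AT3G13170) had signals of 33.1 and 48.1 in atyak1-1 and 42.0 and 57.5 in atyak1-2, against 22.7 and 45.7 in the wild type. The groups overlapped, and the lowest signal was that of wild-type replicate 1. Its log2 fold change was 0.46 ± 0.46 (SE; adjusted p = 0.70 in limma; 95% interval -0.62 to 1.54), and 0.23 ± 0.21 on log2(signal + 32); it was -0.04 without wild-type replicate 1 and 0.97 without wild-type replicate 2. *SPO11-2* (AT1G63990) had signals of 45.5 and 31.2 in atyak1-1 and 51.7 and 53.9 in atyak1-2, against 41.6 and 63.9 in the wild type. Here too the groups overlapped, with wild-type replicate 2 highest and an atyak1-1 array lowest. *SPO11-2* had a log2 fold change of -0.21 ± 0.39 (SE; adjusted p = 0.85 in limma; 95% interval -1.12 to 0.70), it was 0.10 without wild-type replicate 2, and it was -0.12 ± 0.19 on log2(signal + 32). The partner genes thus had opposite signs in the main comparison, but both 95% intervals included 0, and the difference between the genes was not tested. In atyak1-2 alone both were above 0, with 0.61 for *ATSPO11-1* and 0.035 for *SPO11-2*.

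*ATMND1* (AT4G29170) encodes a partner of the HOP2 protein, with which it promotes the invasion of the homologous chromosome by the recombinases. Its signal was 99.4 and 227.8 in atyak1-1 and 127.7 and 180.6 in atyak1-2, against 113.7 and 104.8 in the wild type. For 3 of the 4 mutant arrays the signal lay above both wild-type arrays, and on the replicate 1 array of atyak1-1 it lay below them. This gave *ATMND1* a log2 fold change of 0.47 ± 0.36 (SE; adjusted p = 0.60 in limma; 95% interval -0.38 to 1.32), and 0.39 ± 0.30 on log2(signal + 32). The atyak1-1 pair differed by 1.20 on the log2 scale, and without atyak1-1 replicate 2 the log2 fold change was 0.17, against 0.77 without atyak1-1 replicate 1.

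*ZYP1b* (AT1G22275) encodes a transverse filament protein of the synaptonemal complex, the zipper between paired homologues. Its signal was 83.1 and 71.9 in atyak1-1 and 52.8 and 50.5 in atyak1-2, against 67.3 and 50.7 in the wild type. The atyak1-1 arrays lay above all others and the atyak1-2 arrays among or just below the wild type. For the mean of the alleles the log2 fold change was 0.11 ± 0.32 (SE; adjusted p = 0.91 in limma; 95% interval -0.64 to 0.86), on log2(signal + 32) it was 0.08 ± 0.17, and without wild-type replicate 2 it was -0.09. *ZYP1a*, a close copy of *ZYP1b*, has no probe set of its own in the probe table, and whether this probe set also reads *ZYP1a* was not tested.

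*SDS* (SOLO DANCERS, AT1G14750) encodes a cyclin of meiocytes that is required for the pairing of homologues and for recombination between them. It had the largest log2 fold change of the 9 genes. Its signal was 71.5 and 57.8 in atyak1-1 and 58.0 and 44.2 in atyak1-2, against 25.4 and 45.6 in the wild type. Both atyak1-1 arrays lay above the wild type, and 1 atyak1-2 array lay between the wild-type arrays. The log2 fold change was 0.75 ± 0.40 (SE; adjusted p = 0.45 in limma; 95% interval -0.20 to 1.69), a 1.68-fold difference, and 0.42 ± 0.20 on log2(signal + 32) with an adjusted p of 0.39 in limma. It was 0.32 without wild-type replicate 1 and 1.17 without wild-type replicate 2, as the wild-type pair alone differed by 0.84 on the log2 scale.

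*RCK* (ROCK-N-ROLLERS, also called MER3, AT3G27730) encodes a DNA helicase of the main crossover pathway. Its signal was 42.2 and 44.7 in atyak1-1 and 52.5 and 39.6 in atyak1-2, against 25.3 and 33.6 in the wild type. It was the only 1 of the 9 genes whose mutant arrays all lay above both wild-type arrays, an order that 17.4% of all probe sets showed, and for none of the 9 did all mutant arrays lie below, against 10.9% of all probe sets. The log2 fold change was 0.61 ± 0.39 (SE; adjusted p = 0.53 in limma; 95% interval -0.31 to 1.53), a 1.53-fold difference, and 0.32 ± 0.17 on log2(signal + 32). All 6 signals were below 73.6. With single arrays left out it ranged from 0.41 to 0.81 and did not pass.

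AT1G12790 was placed with the meiosis genes when the members were chosen, and the platform's probe table and the RefSeq gene table name it only by its locus code, so no role is given. Its signal was 163 and 143 in atyak1-1 and 117.5 and 153 in atyak1-2, against 128 and 119 in the wild type. The arrays differed least for this gene, with the highest 1.39 times the lowest, against 1.65 to 2.82 times for the other 8. The log2 fold change was 0.21 ± 0.23 (SE; adjusted p = 0.72 in limma; 95% interval -0.32 to 0.75), and 0.17 ± 0.18 on log2(signal + 32). AT1G12790 and *SPL* shared the same extremes, with the highest signal in atyak1-1 replicate 1 and the lowest in atyak1-2 replicate 1.

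**Figure D2:**
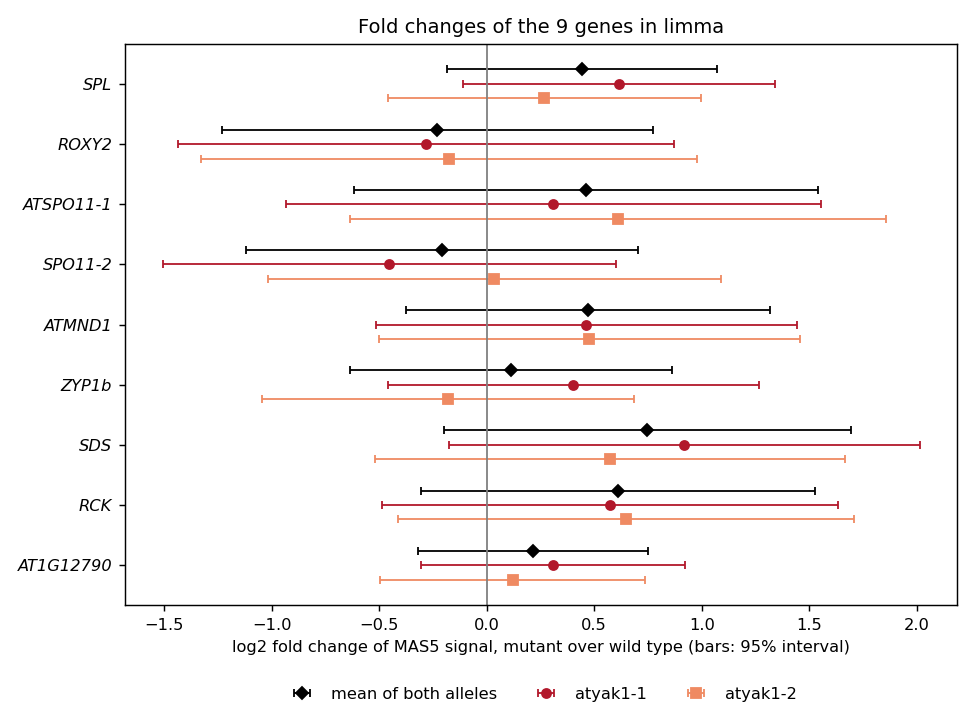
Log2 fold change of MAS5 signal over the wild type (x axis) for each gene (y axis), for the mean of both alleles (diamonds), atyak1-1 (circles) and atyak1-2 (squares), with 95% intervals from limma. Every bar crosses 0; the estimates run from -0.45 for *SPO11-2* in atyak1-1 to 0.92 for *SDS* in atyak1-1.

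The alleles were then compared with the wild type one by one, both against the same 2 wild-type arrays. In atyak1-1, 0 of the 9 genes passed in limma, against 1.06% of all probe sets, and 0 had an unadjusted p under 0.05, against 12.7%. The median log2 fold change of the 9 was 0.40, against 0.08 for all probe sets. For 5 genes, *SPL*, *ZYP1b*, *SDS*, *RCK* and AT1G12790, both atyak1-1 arrays lay above both wild-type arrays, an order that 26.8% of all probe sets showed, and no gene had both below, against 16.7%. *SDS* had 0.92 ± 0.46 (SE, 2 against 2 arrays in the fit to all 6; adjusted p = 0.47 in limma) and *SPL* had 0.62 ± 0.31 (adjusted p = 0.47 in limma), while *SPO11-2* was the lowest with -0.45 ± 0.45. The log2 fold change of *ATMND1*, 0.46 ± 0.42, was -0.13 without atyak1-1 replicate 2, that of *ATSPO11-1*, 0.31 ± 0.53, was -0.20 without wild-type replicate 1, and that of *ROXY2*, -0.28 ± 0.49, was 0.35 without wild-type replicate 2.

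In atyak1-2, 0 of the 9 genes passed in limma, against 0.853% of all probe sets, and 0 had an unadjusted p under 0.05, against 11.2%. The median log2 fold change was 0.27, against 0.09 for all probe sets. Both atyak1-2 arrays lay above both wild-type arrays for *ATMND1* and *RCK*, an order shown by 27.4% of all probe sets, and for no gene below, against 16.2%. *RCK* was the highest with 0.65 ± 0.45 (SE, 2 against 2 arrays in the fit to all 6; adjusted p = 0.66 in limma), followed by *ATSPO11-1* with 0.61 ± 0.53, *SDS* with 0.57 ± 0.46 and *ATMND1* with 0.48 ± 0.42. *ZYP1b* had -0.18 ± 0.37 and *ROXY2* had -0.18 ± 0.49, and *SPO11-2*, at 0.035 ± 0.45, had nearly the wild-type mean. The values of 5 genes changed sign with an array left out: *SPL*, with 0.27 ± 0.31, and AT1G12790, with 0.12 ± 0.26, were at -0.10 and -0.07 without atyak1-2 replicate 2, and *SPO11-2* and *ZYP1b* were at -0.28 and 0.02 without wild-type replicate 1. *ROXY2* was at 0.03 without atyak1-2 replicate 2 and 0.46 without wild-type replicate 2.

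The direct test of atyak1-2 against atyak1-1 called 0 of the 9 genes, with an adjusted p of 1.00 for each in limma, and 0.0% of all probe sets (406 of the 22746 had an unadjusted p under 0.05, and 0 of the 9 genes did). The largest difference was that of *ZYP1b*, with a log2 fold change of -0.58 ± 0.37 (SE, 2 against 2 arrays; 95% interval -1.45 to 0.28), and both of its atyak1-2 arrays lay below both atyak1-1 arrays, as they did for 11.4% of all probe sets. *SPO11-2* had 0.49 ± 0.45 (95% interval -0.57 to 1.54), with both atyak1-2 arrays above both atyak1-1 arrays, as for 12.3% of all probe sets. *ATMND1*, at 0.01 ± 0.42, and *RCK*, at 0.07 ± 0.45, had the alleles closest together, with 95% intervals from -0.97 to 0.99 and from -0.99 to 1.13, so a difference of up to about 2-fold either way lies within them.

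The wild-type replicates alone differed by more than the log2 fold change of the main comparison for 5 of the 9 genes. Replicate numbers were not taken to pair the samples, so the differences within a replicate number only describe the spread of the arrays. Taken within replicate 1, the mean of the mutant arrays minus the wild-type array was 1.34 on the log2 scale for *SDS*, 0.90 for *RCK* and 0.72 for *ATSPO11-1*; within replicate 2 it was 0.15, 0.32 and 0.20 for these genes. *ATMND1* went the other way, with -0.01 within replicate 1 and 0.95 within replicate 2. *ROXY2* had 0.39 and -0.84 and *SPO11-2* had 0.22 and -0.64 within replicates 1 and 2, so both changed sign between the replicates, and *ZYP1b* had -0.02 and 0.25. *SPL*, with 0.44 and 0.45, and AT1G12790, with 0.11 and 0.32, were the most alike in the replicates as means of the alleles, though not allele by allele. For *SPL* the atyak1-1 array differed from the wild-type array by 0.91 within replicate 1 and 0.32 within replicate 2, and the atyak1-2 array by -0.04 and 0.57. For AT1G12790 these were 0.35 and 0.27 in atyak1-1 and -0.12 and 0.36 in atyak1-2. Wild-type replicate 1 held the lowest signal of 4 of the 9 genes, *ROXY2*, *ATSPO11-1*, *SDS* and *RCK*, where 23.7% of all probe sets had their lowest signal on that array, and it held the highest signal of none. The summed signal of the 9 genes was 857 and 894 in atyak1-1 and 719.6 and 869.7 in atyak1-2, against 615 and 739.7 in the wild type.

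**Figure D3:**
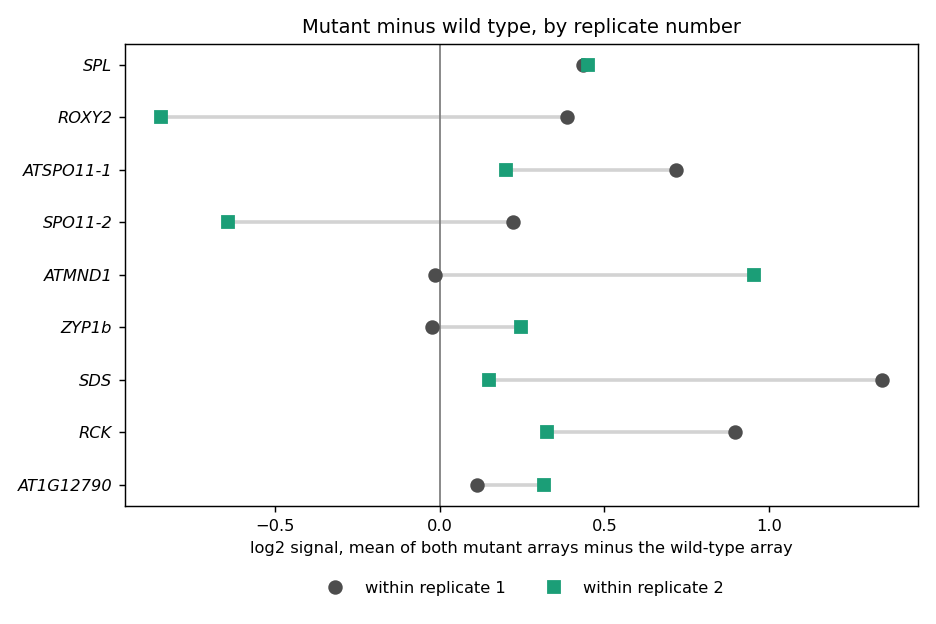
Mean log2 signal of the 2 mutant arrays minus that of the wild-type array (x axis) for each gene (y axis), within replicate 1 (circles) and within replicate 2 (squares). Replicate numbers were not taken to pair the samples. *SDS* spans 0.15 to 1.34 and *ROXY2* -0.84 to 0.39, while the *SPL* points, means of alleles that differ, nearly coincide at 0.44 and 0.45.

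Other genes of the same steps were read from wider lists matched by locus, of which the probe table names few. Of 58 meiosis genes 12 had a named probe set, and 7 of these are among the 9 genes above. Higher means in the mutants were seen for 10 of the 12, against 60.5% of all probe sets. None of the 12 passed in limma, against 1.96% of all probe sets, and none had an unadjusted p under 0.05, against 14.8%. *TOP3A*, a topoisomerase that dissolves recombination intermediates, had signals of 235 and 290.4 in atyak1-1 and 299 and 273 in atyak1-2, against 222 and 191 in the wild type, with all mutant arrays above the wild type (0.41 ± 0.18, adjusted p = 0.35 in limma). *FANCM*, a helicase that limits crossovers in Arabidopsis, also had all mutant arrays above, at 78.0, 112.1, 90.4 and 100.3 against 70.5 and 71.2 in the wild type (0.41 ± 0.28, adjusted p = 0.56 in limma). With *RCK*, 3 of the 12 had this order, against 17.4% of all probe sets. AT4G24710 and AT1G60460 had 0.28 ± 0.35 and 0.28 ± 0.46, and *DFO*, needed to form double-strand breaks, had -0.27 ± 0.64. The median of the 12 was 0.35, and that of the 5 that are not among the 9 genes was 0.28, against 0.09 for all probe sets. On log2(signal + 32) these medians were 0.23, 0.22 and 0.06, and 7 of the 12 genes had a geometric mean signal below 73.6.

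Of 29 early anther genes 9 had a named probe set, *SPL* and *ROXY2* among them. The mutant mean was higher for 7 of these 9, against 60.5% of all probe sets. Over the list the median was 0.19, and 0.15 on log2(signal + 32). None passed in limma, against 1.96% of all probe sets, and none had an unadjusted p under 0.05, against 14.8%. *ROXY1*, the partner of *ROXY2*, had signals of 103 and 119.5 in atyak1-1 and 77.9 and 105.8 in atyak1-2, against 58.4 and 94.9 in the wild type (0.43 ± 0.32, adjusted p = 0.58 in limma). The groups overlapped for *ROXY1* as they did for *ROXY2*. *EMS1*, the receptor kinase that specifies the tapetum, had signals between 691 and 1117 on the mutant arrays, against 756 and 867 on the wild-type arrays (0.16 ± 0.17, adjusted p = 0.73 in limma). *PHV*, a homeodomain gene of organ polarity, had between 714 and 838 on the mutant arrays, against 706 and 562 on the wild-type arrays (0.31 ± 0.13, adjusted p = 0.35 in limma). All mutant arrays of *PHV* and of AT5G45780 (0.65 ± 0.31, adjusted p = 0.39 in limma) lay above the wild type, an order of 2 of these 9 genes, against 17.4% of all probe sets. *JAG*, which promotes the growth of floral organs, had 0.02 ± 0.28, its relative *NUB* had 0.19 ± 0.66, and AT2G23950 had -0.03 ± 0.28.

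Markers of the other cell types of a bud were read beside these genes. The marker lists were chosen with earlier results of these data known, so the late pollen counts are a description and no independent test. Of 12 named genes of late pollen, all 12 had lower means in the mutants and 6 passed as lower in limma, where 1.68% of all probe sets passed as lower, and their median log2 fold change was -2.52; after quantile normalization, without atyak1-1 replicate 2 and without wild-type replicate 2 it was 11 of the 12 that were lower. Their summed signal was between 998 and 3082 on the mutant arrays, against 11576 and 14034 on the wild-type arrays. The largest part of that sum on every array was from 1 gene, AT5G45880. Its signals were between 494 and 2189 on the mutant arrays, against 6938 and 8169 on the wild-type arrays. *PLIM2a*, which encodes an actin-binding LIM protein of pollen, had the smallest p of the list, with signals of 26.3 and 26.6 in atyak1-1 and 58.9 and 26.8 in atyak1-2, against 1409 and 1267 in the wild type (-5.36 ± 0.34, adjusted p = 0.0019 in limma, and -4.39 on log2(signal + 32)). AT4G39110 followed, with between 19.1 and 44.9 on the mutant arrays, against 458 and 393 on the wild-type arrays (-3.76 ± 0.43, adjusted p = 0.011 in limma, and -2.82 on log2(signal + 32)). The smallest late pollen change that passed was that of the actin gene *ACT12*, with -1.58 ± 0.21 (adjusted p = 0.016 in limma). For the mean of the alleles, the 95% intervals of the 9 meiosis and early anther genes ran no lower than -1.23. In atyak1-1 alone the lowest bound was -1.51, where *ACT12* had -1.47 ± 0.25. These bounds are of intervals, while the *ACT12* values are estimates with an error of their own. Late pollen changes that did not pass ran up to -0.06, a value inside all 9 intervals. Whether the 9 genes share any of the late pollen change was not tested. The sperm cell histone gene *MGH3*, the 1 named gene of 3 sperm genes, passed as lower, with -2.39 ± 0.41 (adjusted p = 0.038 in limma). The count of late pollen calls was 0 without wild-type replicate 1 or 2, 2 without atyak1-2 replicate 1 or 2, and 9 without atyak1-1 replicate 1; *ACT12* missed the threshold without each of the wild-type and atyak1-2 arrays (adjusted p from 0.066 to 0.20 in limma), and *MGH3* without any array but atyak1-1 replicate 1 (0.060 to 0.32). Without the variance trend 1 late pollen gene passed, and *ACT12* and *MGH3* did not (0.096 and 0.14). The 4 named tapetum genes of a list of 18, *SWEET8*, AT5G07230, *AMS* and *SHT*, had between 0.14 and 0.39. Of these 4 genes 0 passed in limma, against 1.96% of all probe sets, and 0 had an unadjusted p under 0.05, against 14.8%. Their summed signal was 6253 and 10191 in atyak1-1 and 6372 and 8771 in atyak1-2, against 4583 and 9390 in the wild type. In each group the sum was higher in replicate 2 than in replicate 1. Wild-type replicate 1, which held the lowest signal of 4 of the 9 genes, was also lowest for the tapetum. The part of the tapetum level, and of the replicate that moves with it, in the values of the 9 genes was not tested.

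Ovules also hold meiocytes and express *SPL*. Of 9 carpel and ovule genes 2 had a named probe set: *ALC*, a regulator of fruit opening, had 0.64 ± 0.17 (adjusted p = 0.15 in limma, the 1 of the pair with an unadjusted p under 0.05) with all mutant arrays above the wild type, an order that 17.4% of all probe sets showed, and *INO*, a marker of the outer integument of the ovule, had -0.32 ± 0.36 (adjusted p = 0.74 in limma). The summed signal of the pair was between 811 and 1094 on the mutant arrays, against 562 and 826 on the wild-type arrays. Most of that sum was the signal of *ALC* on every array. The part of carpel tissue in the values of the 9 genes was not tested. The leaf marker *RCA* had -0.02 ± 0.15, and the root marker *EXPA7* was dim on all arrays, with signals of 20.1 and 6.92 in atyak1-1 and 30.4 and 30.1 in atyak1-2, against 4.54 and 4.75 in the wild type. All mutant arrays of *EXPA7* lay above the wild type, with a log2 fold change of 2.02 ± 0.66 (adjusted p = 0.22 in limma, with an unadjusted p of 0.018) and 0.53 ± 0.16 on log2(signal + 32), and its part in the values of the 9 genes was not tested. The lists of floral organ identity and of cell division had 0 named probe sets.

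**Figure D4:**
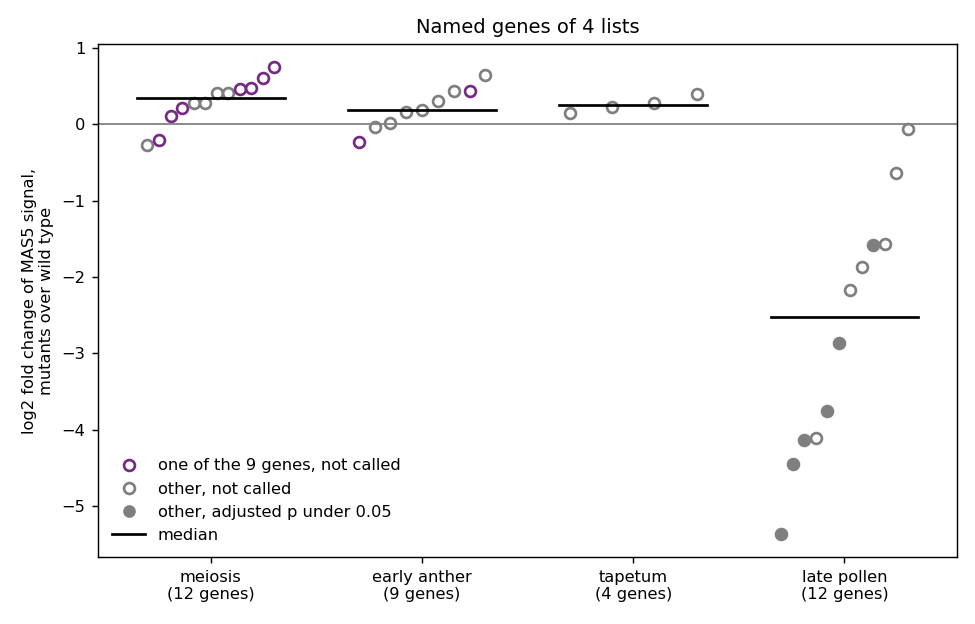
Log2 fold change of MAS5 signal, mean of both mutant alleles over the wild type (y axis), of each named gene of 4 lists (x axis); purple circles are the 9 genes, grey ones the other list members, filled circles passed an adjusted p of 0.05 in limma and bars are medians. The medians are 0.35 for meiosis, 0.19 for early anther, 0.25 for tapetum and -2.52 for late pollen, and filled circles occur in late pollen alone. On log2(signal + 32), not drawn, the medians are 0.23, 0.15, 0.24 and -1.50 in the same order. The lists were chosen with earlier results of these data known.

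The patterns most like those of the 3 brighter genes were looked up among 5978 other named probe sets brighter than the median of all. The measure was Pearson's r of log2 signal over the 6 arrays, which share the genotype difference and the replicate spread, so the values are a description. The closest to *SPL* was AT5G23610, with r = 0.99, whose signals were 1095 and 965 in atyak1-1 and 865 and 1013 in atyak1-2, against 872 and 906 in the wild type. AT5G15520 and AT3G13120 followed with 0.98 and 0.97. For *ATMND1* the closest were AT1G48610, *NRPB9B*, which encodes a subunit of RNA polymerase, and AT1G78060, each with r = 0.99. For AT1G12790 they were AT3G24570, AT4G35410 and AT4G10470, with 0.99, 0.98 and 0.97. An r over 0.95 was reached by 54 probe sets for *ATMND1*, 6 for *SPL* and 9 for AT1G12790. How many of the 5978 would reach it by chance over 6 arrays was not tested.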

How the data were processed

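The authors deposited linear intensity values, MAS5 signals, of 22810 probe sets on 6 arrays; GCOS and MAS5 are named without versions, per the submitters' processing notes. The 2% trimmed mean of each array was 500, so the authors had scaled the arrays to one level. The 9 genes, the wider lists and the tests were chosen with earlier results of these data known.

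Signals were taken to log2 with no filter, pseudocount or further normalization, and 64 control probe sets were left out. With limma 3.58.1 in R 4.3.3, a linear model with 3 genotype means took in all 6 arrays, with variances moderated by a trend on mean signal (3 residual and 4.20 prior degrees of freedom), and Benjamini-Hochberg adjustment ran over 22746 probe sets. The 95% intervals are per gene and not adjusted. The script was tested on simulated data. For mutants against wild type it called 24% of 50 probe sets given a log2 change of 1. Of 50 probe sets given a change of 2 it called 54%, so many changes of these sizes were missed. Plots used matplotlib 3.10.9.

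Names come from the platform's probe table: 13513 probe sets had 1 gene, 503 several and 8730 none listed, and 13436 matched a RefSeq record. Genes named were the 9 genes, list members with a named probe set, up to 2 genes by smallest p of each marker list, and for each brighter gene the 3 most alike. *ACT12*, AT5G45880, AT5G07230 and *SHT* were named beyond that rule, after their values were seen. Alternatives were 2 signal filters, log2(signal + 32), quantile normalization, median centring, no variance trend, array weights, a replicate block, fits of fewer groups and each array left out.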

Additional observations from a re-analysis of the deposited data

How the results depend on the processing

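Under every alternative listed, 0 of those of the 9 genes that it tested passed in limma in each of the 4 comparisons, and in the main comparison 0 of the meiosis and early anther lists passed. Leaving out the lowest 33.3% of signals removed 6 of the 9 genes and the stricter filter removed all 9, so that it gave no value for them. The lowest adjusted p reached by any of the 9 in the main comparison was 0.35 among the other alternatives and 0.22 with an array left out. Outside the left-out arrays the only changes of sign were in atyak1-2 against atyak1-1, where *ATMND1* was at -0.004114 on log2(signal + 32) and *RCK* at -0.00272 after quantile normalization.

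With single arrays left out, the log2 fold changes that changed sign ranged, in mutants against wild type, from -0.86 to 0.40 for *ROXY2*, -0.045 to 0.97 for *ATSPO11-1*, -0.52 to 0.10 for *SPO11-2* and -0.092 to 0.32 for *ZYP1b*. In atyak1-1 against wild type they ranged from -0.91 to 0.35 for *ROXY2*, -0.20 to 0.82 for *ATSPO11-1* and -0.13 to 1.06 for *ATMND1*. In atyak1-2 against wild type the ranges were -0.10 to 0.64 for *SPL*, -0.81 to 0.46 for *ROXY2*, -0.28 to 0.35 for *SPO11-2*, -0.38 to 0.025 for *ZYP1b* and -0.069 to 0.31 for AT1G12790. In atyak1-2 against atyak1-1 they were -0.72 to 0.024 for *SPL*, -0.12 to 0.34 for *ROXY2*, -0.59 to 0.61 for *ATMND1*, -0.13 to 0.27 for *RCK* and -0.38 to 0.0030 for AT1G12790.

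The count of all probe sets called was less stable, and the cause was not tested. For mutants against wild type, 445 in the main setting, it was 292 without the lowest 33.3% of signals, 113 without the lower 50%, 62 without the variance trend, 734 in a fit of 2 groups, and from 2 to 757 with single arrays left out. For atyak1-1, 242 in the main setting, these were 160, 56, 10, 151 in a fit of the groups compared, and 2 to 561. For atyak1-2, 194 in the main setting, it was 50 without the lower 50%, 326 on log2(signal + 32), 1 without the variance trend, 491 in a fit of the groups compared, and 0 to 475 with single arrays left out. For atyak1-2 against atyak1-1, 0 in the main setting, it was 0 to 5 with single arrays left out. With the replicate block the 4 counts were 1305, 904, 703 and 2, and 0 of the 9 genes passed, while 10 of the 12 late pollen genes passed as lower, against 6 without the block. The numbers were not taken to pair the samples: same-numbered deviations from the group means correlated by 0.03 for atyak1-1 with the wild type, 0.05 for atyak1-2 with the wild type and 0.22 between the alleles over all probe sets, and by 0.25, 0.35 and 0.61 without the lowest 33.3% of signals. Dim signal limits 6 of the 9 genes, and 2 arrays a group limit all of them.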
